A study of Mus musculus with 24 samples.

Results

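Liver RNA-Seq was compared between 6 vehicle-treated mice with an adipocyte-specific deletion of Lmna (Lmna ADKO) and 7 vehicle-treated controls, which gave 13 of the 24 libraries of the series. The members were chosen by their labels, a liver library with the treatment vehicle and the genotype Lmna.KO or Lmna.WT. By the study's methods, all of these mice were female, on a C57BL/6J background, homozygous for a floxed Lmna allele, and 12 to 14 weeks old at the start. The Lmna ADKO mice also carried the Adipoq-Cre transgene, which drives recombination in adipocytes, and the controls had no Cre. Both groups were housed at 22°C and ate a diet with 60% of calories from fat, which began 4 weeks before the injection. The methods name no other diet for the time after it. The mice were injected in the retro-orbital vein with vehicle, which was PBS with Pluronic, and were euthanized 8 weeks later. The mutation is therefore not made in hepatocytes, and the mice serve as a model of lipodystrophy. The remaining 11 libraries, 8 from Lmna ADKO mice and 3 from controls, are labelled rescue and come from other animals. The study describes gene transfer of FGF21 with an AAV8 vector as the treatment that its liver RNA-Seq set against vehicle, while the labels say no more than rescue. The values of these libraries are set beside those of vehicle where stated. The deposited values are counts of reads per gene, given here as CPM, counts per 1000000 counts of a library after scaling.

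In lipodystrophy, adipose tissue that should store triacylglycerol and secrete leptin and adiponectin is missing, and dietary fat is stored in the liver instead. Hepatocytes hold this fat in droplets coated by perilipin and CIDE proteins, make more of it from glucose through lipogenesis driven by insulin, and export it on lipoproteins. The liver also makes most plasma proteins, clears amino nitrogen as urea, detoxifies foreign compounds with cytochromes P450, and answers to the pattern of pituitary growth hormone, which sets many sex differences of hepatic gene expression.

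Between 19863304 and 21260806 reads per vehicle library fell on genes, and a gene with 3 counts corresponds to 0.125 to 0.166 CPM. Alb, the albumin gene, was at 58728 to 104793 CPM in controls (median 89846) and 53874 to 81674 CPM in Lmna ADKO livers (median 70452), which marks the samples as liver, whereas Adipoq reached no more than 0.609 CPM and Lep was at 0 in all 13 libraries. Lmna itself (ENSMUSG00000028063; chromosome 3, 88480147 to 88509956 on GRCm38), whose transcript the liver still makes, was at 15.7 to 22.1 CPM in controls (median 17.4) and 23.6 to 31 CPM in Lmna ADKO livers (median 25.9). Its values did not overlap between groups, yet the difference stayed under the fold threshold (log2 fold change 0.52, SE 0.12, adjusted p = 0.00322 from edgeR). The first principal component of the 13 vehicle libraries held 49.6% of the variance, with Lmna ADKO libraries from -39.7 to -18.5 and controls from 12.7 to 39.8. Control library 3 fell in level with gene length (slope -0.154 per log2 of length, others -0.0436 to 0.123), and control library 1 stood apart in acute phase genes. The numbers in the library labels have 3 digits in 6 of 7 controls and in 1 of 6 Lmna ADKO libraries, and 4 digits in the others, so that this series of numbers is confounded with the genotype. Within the 3-digit libraries, 98.3% of the genes called over all libraries had the same direction, and within the 4-digit libraries 99.3%, although these libraries had also entered the call.

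A gene was called different at an adjusted p under 0.05 in edgeR's quasi-likelihood test (Benjamini-Hochberg adjustment over 23972 genes) if its fold change also exceeded 1.5. With vehicle, 1227 genes were called higher in Lmna ADKO livers (5.12% of genes tested) and 806 lower (3.36%), 2033 in all (8.48%). The CPM values of the groups did not overlap for 1906 genes (7.95%), among them 987 of the called genes. Genes named below for the size of their change were required not to overlap. A separation of the groups in such a gene follows from that rule and is no result in itself. The median log2 fold change of all genes was 0.0027. These percentages are the background for the counts of list members given from here on, and the log2 fold changes (Lmna ADKO over control) are printed with the standard error (SE) where 2 numbers are joined by ±. In liver as a whole, a change in the share of cells of a type and a change of RNA per cell cannot be told apart.

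Among genes that were called with each vehicle library left out, averaged at least 0 in log2 CPM and did not overlap between groups, the largest rise was that of Cidea, which encodes a droplet protein that promotes growth of lipid droplets and is known from brown and beige adipocytes. It was at 0 to 0.138 CPM in controls (median 0) and 5.6 to 50.4 CPM in Lmna ADKO livers (median 19.6). The 7 control libraries held 3 counts in all, in 1 library, against 3024 in Lmna ADKO libraries, a ratio of 1094 with a 95% interval of 374 to 5306 that covers counting error only (adjusted p = 6.55e-05 from edgeR). Cidec, the related gene of white adipocytes and fatty liver (ENSMUSG00000030278; chromosome 6, 113424634 to 113435760 on GRCm38), was at 1.22 to 6.72 CPM in controls (median 1.97) and 67.4 to 160.2 CPM in Lmna ADKO livers (median 111). Every Lmna ADKO library thus exceeded every control by a wide margin, and the fitted difference was 5.31 ± 0.57 (adjusted p = 2.5e-06 from edgeR). Apoa4, an apolipoprotein that rides on triacylglycerol-rich lipoproteins, rose at a far higher level of expression. It was at 142 to 1046 CPM in controls (median 266) and 2336 to 10678 CPM in Lmna ADKO livers (median 4997) (log2 fold change 3.83, SE 0.54, adjusted p = 5.06e-05). Mogat1, a monoacylglycerol acyltransferase, rose from a median of 1.33 to 16.9 CPM (3.44 ± 0.34).

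Other leading rises belonged to different functions. Sprr1a, a cornified envelope protein that is also induced in stressed and regenerating tissue, was at 0 to 0.598 CPM in controls (median 0.0553) and 3.16 to 21.6 CPM in Lmna ADKO livers (median 14.9), with no overlap (log2 fold change 6.44, SE 1.04, adjusted p = 0.000236). Themis, known for its role in T cell development, had a median of 0.363 CPM in controls and 13.6 CPM in Lmna ADKO livers (5.12 ± 0.56), while no lymphocyte marker was called by edgeR. Osbpl3, an oxysterol-binding-protein family member at membrane contact sites, rose by 3.73, Gprc5b, an orphan receptor linked to adipose inflammation, by 4.04, and Serpina12, the adipokine vaspin, by 3.68 on the log2 scale. Treh, which splits trehalose (4.22), Pls1, an actin-bundling plastin (3.68), Slc35f2, a solute carrier (3.66), and Lamb3, a laminin chain of epithelial basement membranes (3.41), also separated the groups completely.

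**Figure D1:**
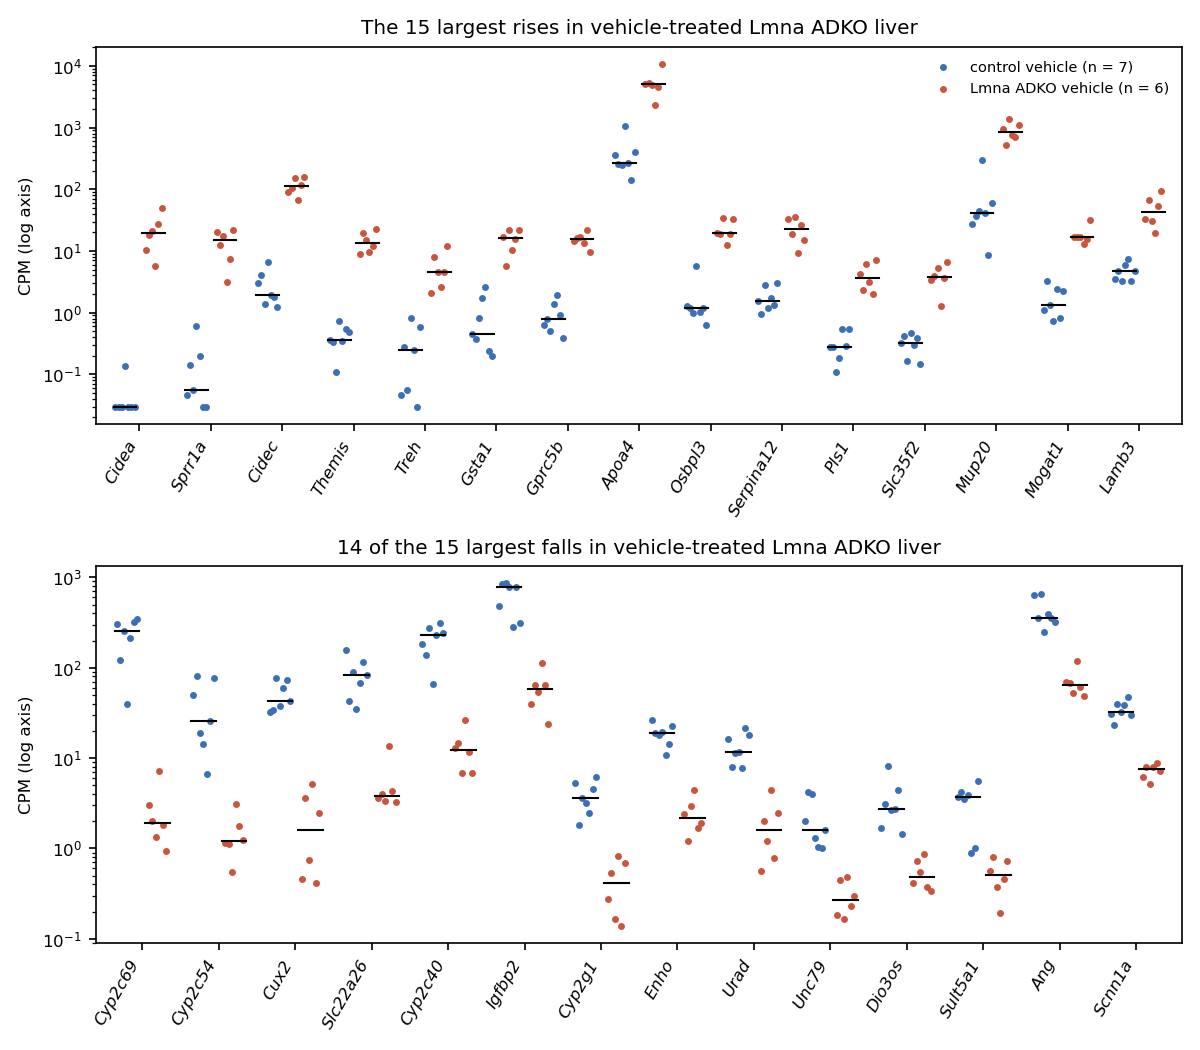
CPM of the 15 genes with the largest rises and 14 of the 15 with the largest falls in each vehicle library, on a log axis; points are libraries, black lines are group medians, and values below the axis are drawn at its lower end. In each gene the Lmna ADKO points lie on 1 side of all control points, as the rule for these genes requires.

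The largest falls by the same rule were led by female-biased liver genes. Cyp3a16 and Cyp3a41a, female-biased P450s with close copies, went from mean levels of 29.4 and 381 CPM in controls to 0.0232 and 0.784 CPM in Lmna ADKO livers and were called lower, but their groups overlapped. Cux2, a female-specific transcription factor of hepatocytes (ENSMUSG00000042589; chromosome 5, 121856366 to 122050102 on GRCm38), was at 32.4 to 76.6 CPM in controls (median 42.4) and 0.417 to 5.16 CPM in Lmna ADKO livers (median 1.59). Its lowest control lay above its highest Lmna ADKO library (log2 fold change -4.58, SE 0.75, adjusted p = 0.000261 from edgeR). Slc22a26, a female-biased member of the organic anion transporter family, was at 35.1 to 158 CPM in controls (median 83.8) and 3.29 to 13.4 CPM in Lmna ADKO livers (median 3.81), also without overlap (log2 fold change -4.00, SE 0.60, adjusted p = 0.000102). A1bg, an alpha-1B-glycoprotein with strong female bias, was at 4.37 to 249.8 CPM in controls (median 39.9) and 0.135 to 5.3 CPM in Lmna ADKO livers (median 1.27), and here the groups overlapped (log2 fold change -5.10, SE 1.08, adjusted p = 0.0026).

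Of 30 female-biased genes tested, 20 were called lower and 1 was called higher, with a median log2 fold change of -2.40. Cd36, the exception, is a fatty acid translocase. The drug-metabolizing enzymes among them included Cyp2c69 (-6.40 ± 0.85), Cyp2c40 (-3.98 ± 0.52) and Cyp2b9 (-0.79 ± 0.14), and the sulfotransferase Sult3a1 (-4.40 ± 1.14), of which 1 control library was at 0. Reads of the Cyp2c family and of other families of close copies can be split among their members, so that single members are uncertain. Male-biased genes were divided, with 6 of 32 called higher and 6 lower (median 0.15). Mup20, a male pheromone of the major urinary protein family, was at 8.56 to 302 CPM in controls (median 40.5) and 512 to 1396 CPM in Lmna ADKO livers (median 851) (log2 fold change 3.59, SE 0.90, adjusted p = 0.00922), and Cyp2d9, a male-specific steroid hydroxylase, was at 22.5 to 54.5 CPM in controls (median 43.9) and 161 to 324 CPM in Lmna ADKO livers (median 242) (log2 fold change 2.58, SE 0.28, adjusted p = 1.4e-06). In contrast, Hsd3b5, a defining male gene, stayed at or under 0.195 CPM in all 13 libraries, and Slco1a1, a male-biased organic anion transporter, had medians of 0.454 and 0.411 CPM. Mup20 did not pass the test with the series of library numbers as a covariate (2.96, adjusted p = 0.062 from edgeR). Keg1, also male-biased, fell (-1.40 ± 0.16). The male-biased list thus showed no common direction.

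Growth hormone acts on hepatocytes through its receptor, JAK2 and STAT5, which binds the palindrome TTCNNNGAA. No member of the list of 33 genes of insulin, growth hormone and IGF1 signalling was called higher and 8 were called lower (median -0.28). Igf1, the circulating growth factor, was at 267 to 393 CPM in controls (median 350.0) and 133 to 222 CPM in Lmna ADKO livers (median 183). All Lmna ADKO libraries were below all controls (log2 fold change -0.89, SE 0.17, adjusted p = 0.000613). Igfals, which keeps IGF1 in its ternary complex in blood, was at 143 to 210.2 CPM in controls (median 172) and 35.7 to 77.7 CPM in Lmna ADKO livers (median 61.7), a wider separation (log2 fold change -1.54, SE 0.18, adjusted p = 1.59e-06). Igfbp2, an IGF-binding protein that falls when insulin is high, was at 283 to 856 CPM in controls (median 786) and 23.5 to 113 CPM in Lmna ADKO livers (median 58.8) (log2 fold change -3.38, SE 0.41, adjusted p = 8.94e-06). Prlr, the prolactin receptor, fell by 1.55 on the log2 scale, and Irs2, an adaptor of the insulin receptor, fell by 0.92. The receptors of growth hormone and insulin were not called, with Ghr at 249.9 to 357 against 275 to 374 CPM and Insr at 79 to 121 against 69.2 to 81.7 CPM.

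To show the STAT5 letters in genes that fell together, the 250 bases before each annotated start were searched for TTCNNNGAA, which reads the same on both strands. It was found in 2306 of 32851 promoters of all genes (7.02%), 3 of 17 promoters of the female-biased genes called lower, and 3 of 14 of the axis genes called lower. By gene, these were A1bg, Slc22a26 and Sult3a1 of 15 female-biased genes, and Igfals and Prlr of 8 axis genes. The search held a promoter for these 15 of the 20 female-biased genes called lower. Over all members, called or not, the palindrome was in 3 of 29 (10.3%) and 7 of 46 (15.2%) promoters. Among the latter were those of Akt2, Bcl6 and Socs3, which were not called. The stretch of A1bg overlapped an annotated exon and is not printed. The sequences are from RefSeq on GRCm38.p6, overlap no annotated exon, and carry the match in capitals. They lie at chr17:24878143-24878211 (plus strand, Igfals), chr15:10223766-10223834 (plus strand, Prlr), chr19:7802770-7802838 (minus strand, Slc22a26) and chr10:33857583-33857651 (plus strand, Sult3a1). The first base of the match lay 58 bases before the start in Igfals, 110 in Prlr, 141 in Slc22a26 and 109 in Sult3a1. Another Igfals promoter held a match 236 bases before its own start (chr17:24877594-24877646, plus strand). That match is counted in the 3 of 14 but not printed. These letters are a description of the window, and binding was not measured.
Igfals: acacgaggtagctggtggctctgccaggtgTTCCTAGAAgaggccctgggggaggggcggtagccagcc
Prlr: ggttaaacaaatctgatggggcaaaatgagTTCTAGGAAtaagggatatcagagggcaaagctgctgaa
Slc22a26: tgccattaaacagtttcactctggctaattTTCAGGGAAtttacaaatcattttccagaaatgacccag
Sult3a1: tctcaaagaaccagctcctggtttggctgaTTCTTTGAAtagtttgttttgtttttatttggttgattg

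Lipid is stored in droplets coated by proteins. Of 19 of these lipid droplet proteins, 6 were called higher, 0 lower and 13 not (median 0.35). Plin4, a perilipin of adipocytes, was at 9.73 to 32.4 CPM in controls (median 18) and 60.7 to 152 CPM in Lmna ADKO livers (median 90.7) (log2 fold change 2.31, SE 0.23, adjusted p = 4.04e-07), and Fitm1, which partitions fat into droplets, was at 8.21 to 18.4 CPM in controls (median 12.8) and 43.2 to 51.8 CPM in Lmna ADKO livers (median 44.8) (log2 fold change 1.82, SE 0.26, adjusted p = 3.55e-05). Abhd5, the activator of the lipase ATGL, rose by less (0.60 ± 0.098), and with the series of library numbers as a covariate its fold change was under the threshold (0.52). Plin2, the main perilipin of hepatocytes, overlapped between groups at 468 to 1218 CPM in controls (median 624) and 766 to 1343 CPM in Lmna ADKO livers (median 1043) and was not called (log2 fold change 0.48, SE 0.19, adjusted p = 0.0959). Without control library 2 it was called, at 0.64 (adjusted p = 0.0149 from edgeR).

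For fatty acid uptake and targets of PPARG, 8 of 21 genes were called higher and 3 lower. Pparg, the adipogenic nuclear receptor, was at 9.12 to 16 CPM in controls (median 11.8) and 17.9 to 27 CPM in Lmna ADKO livers (median 23), with every Lmna ADKO library above every control (log2 fold change 0.90, SE 0.13, adjusted p = 1.74e-05). Cd36 was at 91.4 to 187 CPM in controls (median 148) and 312 to 386 CPM in Lmna ADKO livers (median 350.0), also without overlap (log2 fold change 1.25, SE 0.14, adjusted p = 5.82e-07). A pair of fatty acid-binding proteins of other tissues rose, Fabp4 of adipocytes (1.34 ± 0.23) and Fabp2 of the intestine (1.27 ± 0.28), whereas the hepatic Fabp1 was at 2371 to 3690.0 CPM in controls (median 2627) and 3273 to 3888 CPM in Lmna ADKO livers (median 3503) and was not called. Slc27a1, a fatty acid transport protein, fell (-1.15 ± 0.17), and so did the hepatic lipase Lipc, at 167 to 287 CPM in controls (median 219.7) and 57 to 116 CPM in Lmna ADKO livers (median 83.4) (log2 fold change -1.38, SE 0.16, adjusted p = 6.25e-07).

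De novo lipogenesis, the making of fatty acids from acetyl-CoA, had 11 of 23 genes called higher and 1 lower (median 0.68). Scd1, the stearoyl-CoA desaturase, had one of the largest differences in CPM of any gene, at 65.1 to 1895 CPM in controls (median 898) and 3421 to 8472 CPM in Lmna ADKO livers (median 7259.9) (log2 fold change 3.00, SE 0.56, adjusted p = 0.000871). Controls spread over more than 1 order of magnitude here, and the lowest Lmna ADKO library was still above the highest control. Elovl5, an elongase of polyunsaturated fatty acids, was at 319.7 to 534 CPM in controls (median 398) and 835 to 1494 CPM in Lmna ADKO livers (median 1138) (log2 fold change 1.47, SE 0.17, adjusted p = 5.82e-07), and Me1, which supplies NADPH, rose by 0.89 ± 0.18. Fasn, the fatty acid synthase, overlapped between groups at 159 to 441 CPM in controls (median 267) and 294 to 766 CPM in Lmna ADKO livers (median 497) and was not called (log2 fold change 0.89, SE 0.31, adjusted p = 0.0603). It was called without Lmna ADKO library 2 (0.98), Lmna ADKO library 6 (0.996) or control library 5 (1.05). Of the main transcription factors, Srebf1 had medians of 252 and 268 CPM (log2 fold change 0.036, SE 0.14, adjusted p = 0.924), and Mlxipl, which encodes ChREBP, was the gene that fell, at 179 to 253 CPM in controls (median 233) and 89 to 125 CPM in Lmna ADKO livers (median 119) (log2 fold change -0.95, SE 0.13, adjusted p = 8.99e-06).

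Of 23 genes of triacylglycerol assembly and secretion, 6 were called higher and 1 lower, and the median was 0.10. Gpam, which adds the first acyl chain to glycerol phosphate, was at 79.99 to 129.8 CPM in controls (median 104) and 181 to 307 CPM in Lmna ADKO livers (median 226) (log2 fold change 1.19, SE 0.16, adjusted p = 7.12e-06), and Lpin2, a phosphatidate phosphatase, rose by 1.09 ± 0.16. Tm6sf2, needed to load lipid onto VLDL, was at 50.5 to 84.5 CPM in controls (median 53.5) and 28.1 to 34.8 CPM in Lmna ADKO livers (median 31.6) and fell (log2 fold change -0.89, SE 0.13, adjusted p = 1.28e-05). Dgat2 (log2 fold change -0.29, SE 0.14, adjusted p = 0.187), the last enzyme of triacylglycerol synthesis, and Mttp (log2 fold change 0.10, SE 0.13, adjusted p = 0.671), which lipidates apolipoprotein B, were not called.

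Fatty acid oxidation and ketogenesis stayed near the background, with 1 of 33 genes called higher and 1 lower. Pex11a, which divides peroxisomes, rose (0.99 ± 0.16), and Cyp4a10, an omega-hydroxylase that PPARA induces, fell (-1.04 ± 0.21). Cpt1a, the gate of mitochondrial oxidation, was at 389 to 647 CPM in controls (median 494) and 475 to 732 CPM in Lmna ADKO livers (median 596) and was not called. Scp2, a peroxisomal thiolase and sterol carrier, was among the 10 genes with the largest difference in mean CPM, at 1918 to 2907 CPM in controls (median 2416) and 3832 to 4426 CPM in Lmna ADKO livers (median 3941) (log2 fold change 0.74, SE 0.11, adjusted p = 1.5e-05). In glucose metabolism, 5 of 38 genes were called higher and 1 lower, Hk2 among the former (1.10 ± 0.23), while Pck1 (0.45) and G6pc (-0.47), the enzymes of gluconeogenesis and glucose release, did not pass the test.

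**Figure D2:**
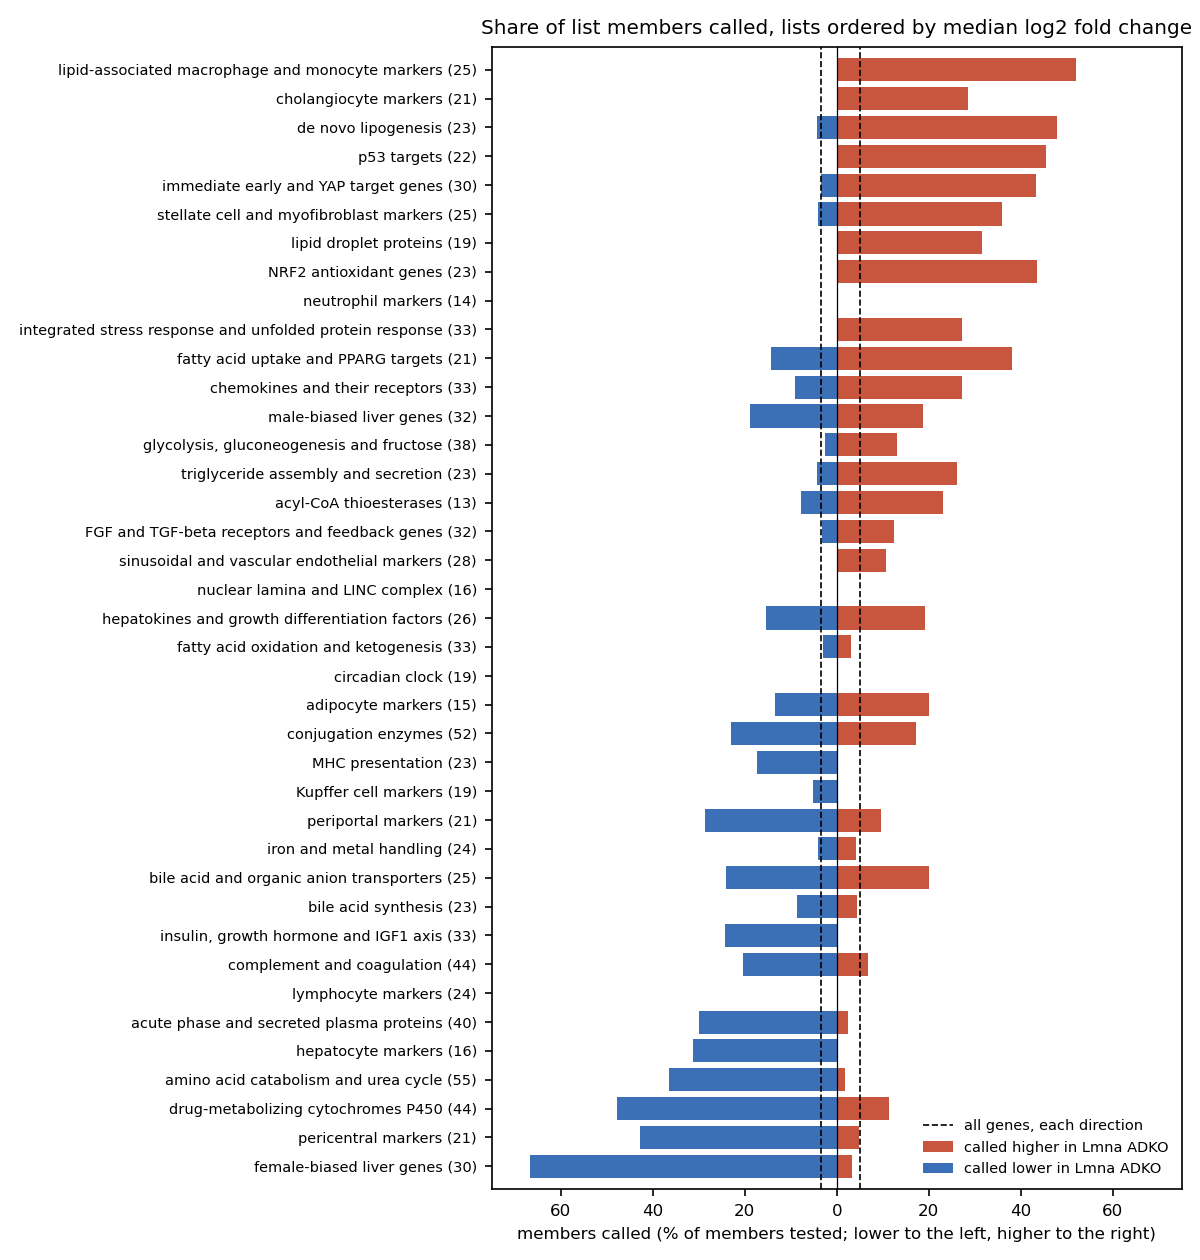
Share of the members of each of 39 gene lists that were called, with those higher in Lmna ADKO livers to the right and those lower to the left; the number tested is in parentheses and dashed lines mark the shares of all genes (5.12% and 3.36%). Lists are ordered by median log2 fold change, from lipid-associated macrophage markers at the top to female-biased genes at the bottom.

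Of 44 cytochromes P450 of drug metabolism, 21 were called lower, 5 higher and 18 not (median -0.49). Cyp3a16, Cyp3a41a, Cyp3a41b, Cyp3a44, Cyp2c69, Cyp2c40, Cyp2a4 and Cyp2b9 among the lower ones were already counted with the female-biased genes. Cyp1a2, which metabolizes caffeine, was at 162 to 438 CPM in controls (median 329.8) and 88.6 to 143 CPM in Lmna ADKO livers (median 117) (log2 fold change -1.44, SE 0.19, adjusted p = 7.67e-06), and Cyp2e1, which oxidizes ethanol, was at 6717 to 12456 CPM in controls (median 10068) and 4080.4 to 8285 CPM in Lmna ADKO livers (median 4849) (log2 fold change -0.88, SE 0.19, adjusted p = 0.0018). Cyp2e1 overlapped between groups whereas Cyp1a2 did not. Nr1i3, the nuclear receptor CAR that induces many of these enzymes, was at 258 to 625 CPM in controls (median 459) and 163 to 343 CPM in Lmna ADKO livers (median 211) (log2 fold change -1.004, SE 0.21, adjusted p = 0.00157). Cyp2c54 (-4.72 ± 0.72) and Cyp2g1 (-3.14 ± 0.41) were among the 15 largest falls.

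Conjugation enzymes moved both ways, with 9 of 52 called higher and 12 lower, and the 9 rises were glutathione S-transferases and glucuronosyltransferases of families with close copies. Gsta1 was at 0.195 to 2.56 CPM in controls (median 0.454) and 5.68 to 22.1 CPM in Lmna ADKO livers (median 16.2) (log2 fold change 4.06, SE 0.70, adjusted p = 0.000422), Gstm3 at 13.2 to 43.8 CPM in controls (median 19.7) and 77.4 to 214 CPM in Lmna ADKO livers (median 123) (log2 fold change 2.25, SE 0.47, adjusted p = 0.00235), and Gstp1 at 178 to 376 CPM in controls (median 308) and 547 to 857 CPM in Lmna ADKO livers (median 723) (log2 fold change 1.38, SE 0.29, adjusted p = 0.00222). All 3 transferases separated the groups, as the rule for genes named by size of change requires. Over the list of 52, 9 called genes did not overlap. Sult5a1, a sulfotransferase, fell by 2.63 on the log2 scale. Sult2a1, Sult2a2 and Sult3a1, called lower in this list, were also counted with the female-biased genes.

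Of 23 antioxidant genes that NRF2 controls, 10 were called higher, 0 lower and 13 not (median 0.33). Srxn1, which repairs oxidized peroxiredoxins, was at 35.8 to 57.1 CPM in controls (median 41.7) and 75.6 to 115 CPM in Lmna ADKO livers (median 93.7) (log2 fold change 1.13, SE 0.15, adjusted p = 5.64e-06). Nqo1, the quinone reductase, was at 7.08 to 11.2 CPM in controls (median 9.17) and 13.9 to 18.5 CPM in Lmna ADKO livers (median 15.6) (log2 fold change 0.84, SE 0.13, adjusted p = 3.64e-05), and Gclc, the limiting enzyme of glutathione synthesis, rose by 0.88 ± 0.19. Cbr3, a carbonyl reductase, had the largest change of the list, from a median of 0.844 to 6.76 CPM (3.07 ± 0.56). The pentose phosphate enzymes Pgd (0.999 ± 0.15) and Tkt (0.94 ± 0.13), which serve NADPH supply and are also counted here, rose too.

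In bile acid synthesis, 1 of 23 genes was called higher and 2 lower (13%, against 8.48% of all genes), and 6 had a log2 fold change above 0 (median -0.26). Cyp7a1, its rate-limiting enzyme, was at 9.37 to 205 CPM in controls (median 127) and 23.5 to 103 CPM in Lmna ADKO livers (median 56.4) and Cyp8b1, which sets the share of cholic acid, at 174 to 333 CPM in controls (median 259) and 299 to 457 CPM in Lmna ADKO livers (median 339.9); neither was called (adjusted p = 0.24 and 0.0627 from edgeR). Transporters of bile acids and organic anions changed more, with 5 of 25 called higher and 6 lower. Slc10a2, the sodium-dependent bile acid transporter of ileum and cholangiocytes, was at 1.12 to 5.57 CPM in controls (median 2.75) and 14.96 to 36.4 CPM in Lmna ADKO livers (median 31.5) (log2 fold change 3.22, SE 0.31, adjusted p = 4.04e-07). Abcg2, which exports urate and drugs, was at 17.5 to 28 CPM in controls (median 21.9) and 60.5 to 88.5 CPM in Lmna ADKO livers (median 75.7), with every Lmna ADKO library above every control (log2 fold change 1.74, SE 0.16, adjusted p = 5.41e-08). The hepatocyte's own bile acid carriers went the other way, with the export pump Abcb11 at 366 to 568 CPM in controls (median 441) and 200.5 to 355 CPM in Lmna ADKO livers (median 282) (log2 fold change -0.70, SE 0.17, adjusted p = 0.00416) and the uptake carrier Slc10a1 at 496 to 833 CPM in controls (median 681) and 273 to 621 CPM in Lmna ADKO livers (median 383) (log2 fold change -0.71, SE 0.17, adjusted p = 0.00433).

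Of 55 genes of amino acid breakdown and the urea cycle, 20 were called lower, 1 higher and 34 not (median -0.42). Hpd, in tyrosine degradation, was at 2444 to 4791 CPM in controls (median 3267) and 847 to 1949 CPM in Lmna ADKO livers (median 1377) (log2 fold change -1.30, SE 0.23, adjusted p = 0.000212). Gnmt, which uses S-adenosylmethionine to methylate glycine, was at 935 to 2636 CPM in controls (median 1636) and 463 to 931 CPM in Lmna ADKO livers (median 631), its lowest control just above its highest Lmna ADKO library (log2 fold change -1.31, SE 0.24, adjusted p = 0.000398). Cps1, the first enzyme of the urea cycle, was at 1652 to 2488 CPM in controls (median 2150.2) and 823 to 1651 CPM in Lmna ADKO livers (median 1025), the lowest control and the highest Lmna ADKO library being nearly equal (log2 fold change -0.93, SE 0.20, adjusted p = 0.00155). Oat, which breaks down ornithine (-1.07 ± 0.19), and Hal (-1.06 ± 0.20) and Amdhd1 (-0.92 ± 0.14) of histidine catabolism also fell. Urad, which acts on a product of urate oxidation, fell by 2.83 on the log2 scale.

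Plasma proteins are secreted by hepatocytes in bulk. Of 40 acute phase and secreted proteins, 12 were called lower and 1 higher (median -0.37), and of 44 complement and coagulation genes, 9 were called lower and 3 higher (median -0.30). C3, the central complement component, was at 7829 to 13869 CPM in controls (median 8892) and 3389 to 4309.7 CPM in Lmna ADKO livers (median 3852) (log2 fold change -1.28, SE 0.17, adjusted p = 6.43e-06). Ahsg, or fetuin-A, was at 8893 to 13769 CPM in controls (median 10269.9) and 4657 to 6219 CPM in Lmna ADKO livers (median 4983) (log2 fold change -1.04, SE 0.14, adjusted p = 8.99e-06). In both genes no library of 1 group entered the range of the other. The elastase inhibitors Serpina1a (-0.95 ± 0.16), Serpina1c (-0.91 ± 0.18) and Serpina1d (-1.03 ± 0.20), near-identical copies whose reads are hard to assign, fell together. F7, coagulation factor VII, was at 113 to 153 CPM in controls (median 136) and 44 to 65.1 CPM in Lmna ADKO livers (median 45.9) (log2 fold change -1.46, SE 0.17, adjusted p = 8.13e-07), Plg, plasminogen, at 2688 to 3519 CPM in controls (median 3196) and 1344 to 2178 CPM in Lmna ADKO livers (median 1642) (log2 fold change -0.89, SE 0.14, adjusted p = 3.36e-05), and Serpinf2, which inhibits plasmin, at 907 to 1078 CPM in controls (median 1026) and 417 to 634 CPM in Lmna ADKO livers (median 481) (log2 fold change -1.03, SE 0.14, adjusted p = 1.12e-05). Serpina7, which binds thyroxine, was the plasma carrier that rose (1.54 ± 0.30). Lifr, a receptor subunit for cytokines of the IL-6 family, fell (-1.34 ± 0.12).

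The classical acute phase genes rested on 1 library. Saa1, serum amyloid A, was at 1691 CPM in control library 1, at 39.4 to 142 CPM in the other controls and at 96.4 to 162 CPM in Lmna ADKO livers. Across all libraries it was not called (log2 fold change -1.22, SE 0.78, adjusted p = 0.336). Without control library 1 the sign turned, and it was again not called (0.91, adjusted p = 0.121 from edgeR). DESeq2 on the 13 vehicle libraries called Saa1 higher. Its default settings, used here, can replace outlying counts in a group as large as the controls. Whether the counts of control library 1 were replaced was not tested. Lcn2, lipocalin 2, and Orm2, orosomucoid 2, which were looked up after the values of control library 1 had been seen, were at 441 and 212 CPM in that library. Their medians were 29.4 and 21.7 CPM in controls and 115 and 58.5 CPM in Lmna ADKO livers. With all libraries neither was called (adjusted p = 0.739 and 0.797 from edgeR). Without control library 1 both were called higher, Lcn2 with a change on the log2 scale of 1.92 (adjusted p = 0.00793 from edgeR) and Orm2 with 1.55 (adjusted p = 0.00737). Hamp, or hepcidin, the hormone of iron balance, had a median of 991 CPM in controls and 143 CPM in Lmna ADKO livers, with 1 library at 2.84 CPM, and was not called (log2 fold change -2.14, SE 0.95, adjusted p = 0.148). Tfrc, the transferrin receptor, rose (1.75 ± 0.42).

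Among 26 hepatokines and related growth factors, 5 were called higher and 4 lower. Enho, the precursor of adropin, was at 10.9 to 26.4 CPM in controls (median 19) and 1.22 to 4.43 CPM in Lmna ADKO livers (median 2.17) (log2 fold change -2.94, SE 0.29, adjusted p = 2.55e-07), and Angptl8, which inhibits lipoprotein lipase and is induced by feeding, was at 33.1 to 85.8 CPM in controls (median 54) and 11.7 to 25.9 CPM in Lmna ADKO livers (median 15.5) (log2 fold change -1.65, SE 0.37, adjusted p = 0.00389). Both fell without overlap, as the rule for genes named by size of change requires. Over the list of 26, 5 called genes did not overlap. Fgf21 (log2 fold change 0.99, SE 0.38, adjusted p = 0.0898), whose control values reached 10.8 CPM, and Gdf15 (log2 fold change 0.61, SE 0.34, adjusted p = 0.262) were not called. Without control library 4, Fgf21 was called higher, at 1.47 (adjusted p = 0.00243 from edgeR). Of the activin subunits, Inhbb rose (1.38 ± 0.24), Inhba fell (-1.28 ± 0.29), and Inhbe was not called (0.26). With the series of library numbers as a covariate, Inhba did not pass the test (-0.88, adjusted p = 0.0703 from edgeR). Ang, or angiogenin, a secreted ribonuclease, was at 249 to 649.9 CPM in controls (median 359.5) and 48.3 to 118 CPM in Lmna ADKO livers (median 64.5) (log2 fold change -2.60, SE 0.36, adjusted p = 3.43e-05).

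**Figure D3:**
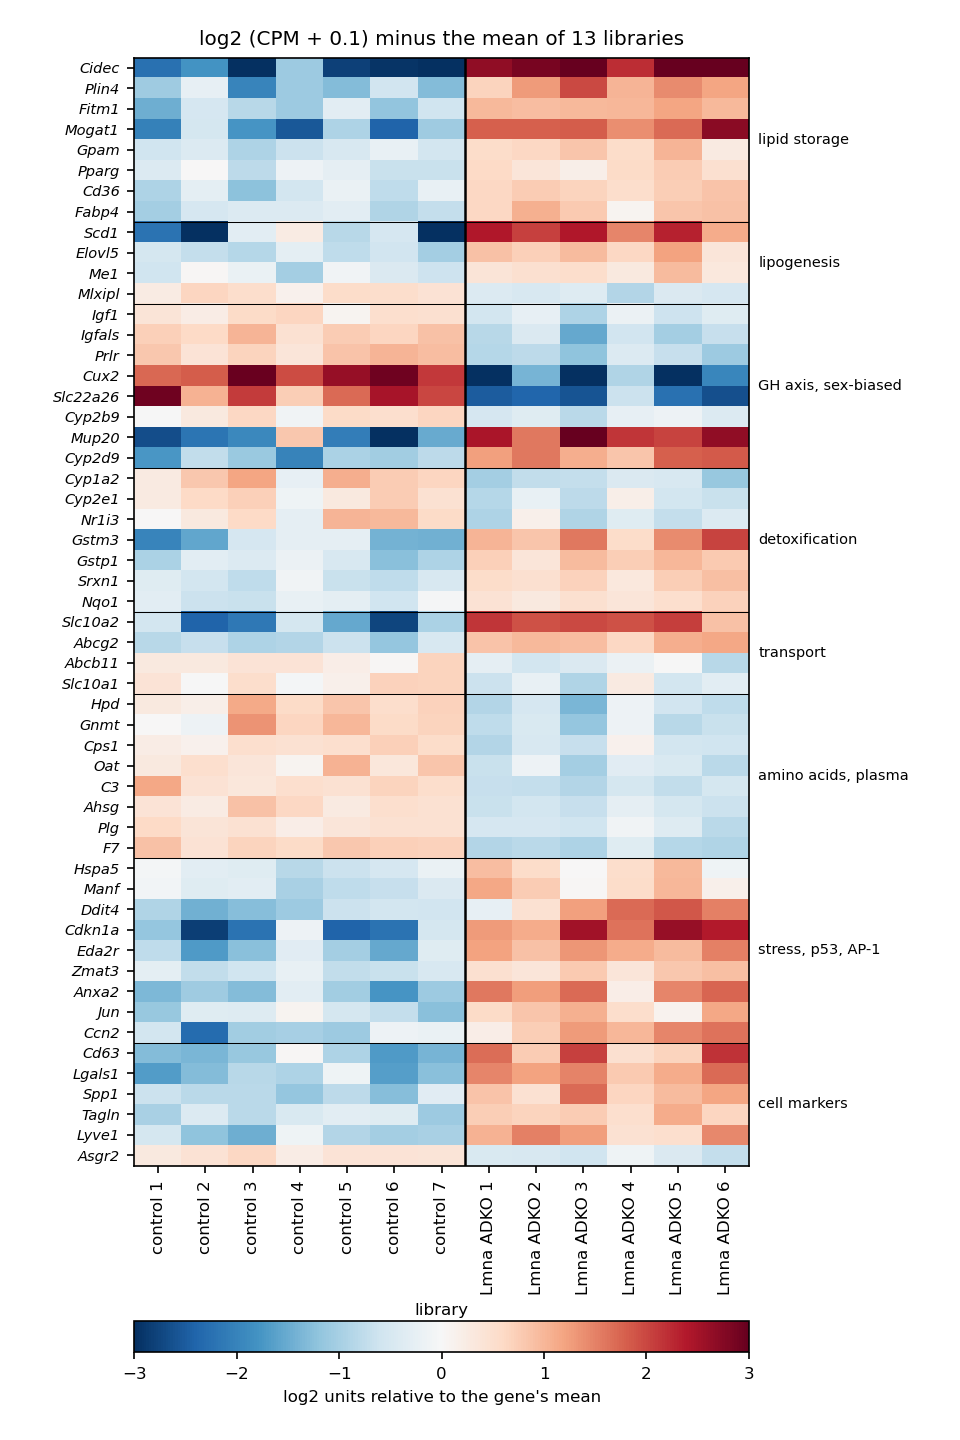
Level of 54 named genes in each vehicle library, as log2 of CPM with a pseudocount of 0.1 minus the mean over the 13 libraries, grouped by function; red is above and blue below the gene's mean, and the color scale ends at 3 units. Control libraries are to the left of the vertical line and Lmna ADKO libraries to the right.

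Of 33 genes of the integrated stress response and the unfolded protein response, 9 were called higher and 0 lower (median 0.30). Hspa5, the chaperone BiP of the endoplasmic reticulum, was at 239.6 to 408 CPM in controls (median 331) and 390.3 to 843 CPM in Lmna ADKO livers (median 622) (log2 fold change 0.93, SE 0.17, adjusted p = 0.000376), and Manf, a secreted protein of the same response, was at 26.1 to 48.3 CPM in controls (median 37.8) and 52.6 to 115 CPM in Lmna ADKO livers (median 80.7) (log2 fold change 1.16, SE 0.20, adjusted p = 0.000272). Ddit4, an inhibitor of mTORC1, rose by 2.16 ± 0.36, and Psat1, of serine synthesis, by 1.55 ± 0.27. Of the transcription factors of the response, Atf3 was called higher (1.17 ± 0.27). Ddit3, or CHOP, was at 5.15 to 8.84 CPM in controls (median 7.32) and 4.83 to 10.04 CPM in Lmna ADKO livers (median 6.61) and was not called, and Atf4 was at 62.6 to 69.7 CPM in controls (median 65.9) and 51.7 to 59.2 CPM in Lmna ADKO livers (median 54.8), slightly lower in every Lmna ADKO library with a fold change under the threshold (log2 fold change -0.26, SE 0.074, adjusted p = 0.018).

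Of 22 p53 targets, 10 were called higher and 0 lower (median 0.59). Cdkn1a, the cell cycle inhibitor p21 (ENSMUSG00000023067; chromosome 17, 29090976 to 29100727 on GRCm38), was at 1.83 to 12.1 CPM in controls (median 2.82) and 29.5 to 82.9 CPM in Lmna ADKO livers (median 55.9) (log2 fold change 3.38, SE 0.46, adjusted p = 3.64e-05). Eda2r, a receptor for ectodysplasin, was at 0.422 to 1.24 CPM in controls (median 0.737) and 3.02 to 4.79 CPM in Lmna ADKO livers (median 3.7) (log2 fold change 2.22, SE 0.28, adjusted p = 3.7e-06), and Zmat3, an RNA-binding protein, was at 4.72 to 6.86 CPM in controls (median 5.25) and 10.2 to 14.998 CPM in Lmna ADKO livers (median 12.5) (log2 fold change 1.17, SE 0.14, adjusted p = 1.29e-06). These 3 genes and Ccng1, cyclin G1, with a smaller difference (0.74 ± 0.10), separated the groups, as the rule for genes named by size of change requires. Over the list of 22, 6 called genes did not overlap. Trp53inp1, a stress-induced nuclear protein, rose by 1.19 ± 0.24. Mdm2, which encodes the ligase that degrades p53, was at 14.5 to 20.2 CPM in controls (median 17.8) and 17.2 to 30.3 CPM in Lmna ADKO livers (median 20.3) and was not called (log2 fold change 0.31, SE 0.13, adjusted p = 0.117).

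Of 30 immediate early and YAP target genes, 13 were called higher and 1 lower (median 0.49). Anxa2, an annexin of membrane repair, was at 13.6 to 37.2 CPM in controls (median 21.7) and 53.8 to 156 CPM in Lmna ADKO livers (median 135) (log2 fold change 2.48, SE 0.34, adjusted p = 3.19e-05), and Anxa5 rose with it (1.72 ± 0.26). Ccn2, the connective tissue growth factor, was at 1.03 to 4.91 CPM in controls (median 2.72) and 6.34 to 17.3 CPM in Lmna ADKO livers (median 12.3) (log2 fold change 1.93, SE 0.27, adjusted p = 2.19e-05). Jun, a subunit of AP-1, was at 7.41 to 19 CPM in controls (median 12.3) and 19.2 to 39.95 CPM in Lmna ADKO livers (median 29.4) (log2 fold change 1.31, SE 0.20, adjusted p = 4.78e-05), and Myc rose by 0.95 ± 0.21. For receptors and feedback genes of FGF and TGF-beta, 4 of 32 were called higher and 1 lower. Tgfbr2, the type II receptor of TGF-beta, was at 14.8 to 21.1 CPM in controls (median 17.2) and 28.4 to 38.2 CPM in Lmna ADKO livers (median 35) (log2 fold change 0.91, SE 0.11, adjusted p = 2.46e-06), whereas none of the FGF receptors Fgfr2 and Fgfr4 and the coreceptor Klb was called. Fgfr4 passed the test with a fold change under the threshold (log2 fold change -0.33, SE 0.094, adjusted p = 0.0149 from edgeR), while Fgfr2 (log2 fold change -0.35, SE 0.12, adjusted p = 0.0534) and Klb (log2 fold change -0.26, SE 0.14, adjusted p = 0.227) did not pass it.

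The lists of cell type markers were read for the cells that a liver sample can hold. Of 25 markers of lipid-associated macrophages and monocytes, 13 were called higher and 0 lower (median 1.01). Cd63, a tetraspanin of late endosomes, was at 4.13 to 13.9 CPM in controls (median 5.44) and 19 to 61.6 CPM in Lmna ADKO livers (median 33.3) (log2 fold change 2.48, SE 0.51, adjusted p = 0.00191), Lgals1, galectin 1, at 15.6 to 45.5 CPM in controls (median 20.8) and 85.5 to 162 CPM in Lmna ADKO livers (median 126) (log2 fold change 2.34, SE 0.46, adjusted p = 0.00131), and Spp1, osteopontin, at 23.3 to 45.3 CPM in controls (median 32.6) and 78.7 to 186 CPM in Lmna ADKO livers (median 107) (log2 fold change 1.83, SE 0.31, adjusted p = 0.000302). Spp1 is also a member of the stellate cell and cholangiocyte lists below and is counted as called higher in each of them. Ccr2, the chemokine receptor of recruited monocytes, rose (1.19 ± 0.31), and so did its ligand Ccl2 (1.47 ± 0.35). Trem2, the defining receptor of lipid-associated macrophages, was at 0.771 to 3.77 CPM in controls (median 2.1) and 1.85 to 6.9 CPM in Lmna ADKO livers (median 4.33) and was not called (log2 fold change 1.19, SE 0.50, adjusted p = 0.128), although DESeq2 called it higher with all 24 libraries (adjusted p = 0.0477). Apoe, which hepatocytes also make, was at 22410.5 to 43469 CPM in controls (median 29525) and 21558 to 28721 CPM in Lmna ADKO livers (median 27054) and dominated the summed level of the list, which was 24427 to 46024 CPM in controls and 24407 to 31543 CPM in Lmna ADKO livers.

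Of resident Kupffer cell markers, 0 of 19 were called higher and 1 lower (median -0.24), and Clec4f, their defining lectin, was at 173 to 277 CPM in controls (median 219) and 83.4 to 204 CPM in Lmna ADKO livers (median 170.3) (log2 fold change -0.53, SE 0.23, adjusted p = 0.124). By edgeR, 0 of 24 lymphocyte markers and 0 of 14 neutrophil markers were called, with 6 and 2 at an unadjusted p under 0.05. The log2 fold change was above 0 in 2 of the lymphocyte markers (median -0.35) and in 9 of the neutrophil markers (median 0.33). The lymphocyte median was 0.22 within the 3-digit and -0.35 within the 4-digit libraries. DESeq2 called 2 lymphocyte markers with all 24 libraries and 2 with the 13 vehicle libraries, and 0 and 1 neutrophil markers. Cd3e of T cells (log2 fold change -0.69, SE 0.28, adjusted p = 0.0945) and Cd79a of B cells (log2 fold change -0.36, SE 0.26, adjusted p = 0.408) were at low CPM, which limits what can be seen. Without Lmna ADKO library 1, Cd3e was called lower (-0.89). Lcn2 and Saa1 values of control library 1 came with a summed neutrophil list of 473 CPM, the highest of the controls, of which Lcn2 made up 441 CPM.

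Stellate cell and myofibroblast markers had 9 of 25 called higher and 1 lower (median 0.41), among them the contractile genes Tagln, at 4.87 to 8.36 CPM in controls (median 7.55) and 14.7 to 22.6 CPM in Lmna ADKO livers (median 17) (log2 fold change 1.36, SE 0.15, adjusted p = 2.55e-07), and Acta2 (0.73 ± 0.18), and the quiescent-cell gene Lrat (0.74 ± 0.20). The gene called lower was Gfap, also known from quiescent stellate cells (-1.05 ± 0.24), at mean levels under 1 CPM. Pdgfrb was not called (log2 fold change 0.21, SE 0.17, adjusted p = 0.465). Of 21 cholangiocyte markers, 6 were called higher and 0 lower (median 0.78) by edgeR, and DESeq2 called 9 with all 24 libraries and 12 with the 13 vehicle libraries. Itga6 (1.47 ± 0.23) and Cd24a (1.10 ± 0.23) rose, while the defining Krt19, at 0.681 to 1.33 CPM in controls (median 0.921) and 1.44 to 2.18 CPM in Lmna ADKO livers (median 1.62), Epcam (0.64) and Sox9 (0.46) were not called. In edgeR on the 13 vehicle libraries alone, Krt19 and Epcam were called higher (adjusted p = 0.00212 and 0.0268). Without control library 4, Sox9 was called higher (0.88). Of 28 endothelial markers, 3 were called higher. Lyve1, a hyaluronan receptor of sinusoidal and lymphatic endothelium, was at 3.81 to 9.9 CPM in controls (median 5.46) and 14.9 to 31 CPM in Lmna ADKO livers (median 24.1) (log2 fold change 1.93, SE 0.21, adjusted p = 5.82e-07), whereas Pecam1 and Stab2 had log2 fold changes of 0.30 and -0.30, under the threshold.

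**Figure D4:**
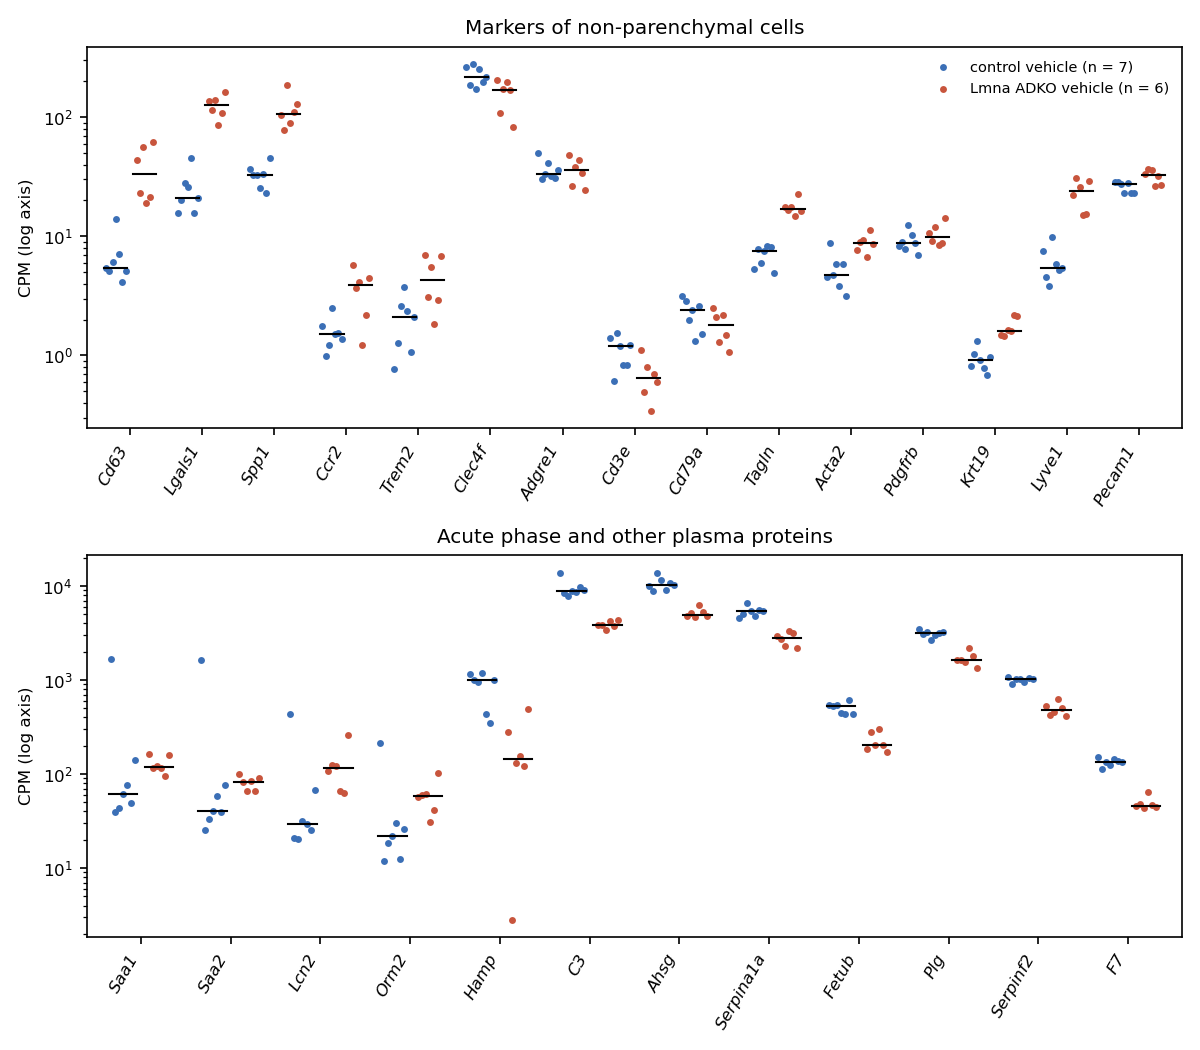
CPM of markers of non-parenchymal cells and of plasma proteins in each vehicle library, on log axes; points are libraries and black lines are group medians. Control library 1 is the high point in Saa1, Saa2, Lcn2 and Orm2.

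Hepatocyte markers showed 0 of 16 called higher and 5 lower (median -0.40), including Asgr2 of the asialoglycoprotein receptor (-0.86 ± 0.11) and the transcription factor Foxa2 (-0.80 ± 0.18), the latter not with the series of library numbers as a covariate (-0.65, adjusted p = 0.0567 from edgeR). Hnf4a (log2 fold change -0.27, SE 0.15, adjusted p = 0.264) was not called. Pericentral genes, expressed around the central vein, had 9 of 21 called lower and 1 higher, and periportal genes had 6 of 21 lower and 2 higher. Glul, the glutamine synthetase of the innermost pericentral layer (log2 fold change 0.32, SE 0.15, adjusted p = 0.16), and Cyp2f2, a periportal P450 (log2 fold change 0.24, SE 0.19, adjusted p = 0.443), were not called, and Aldh1a1, a retinaldehyde dehydrogenase, was the pericentral gene that rose (1.31 ± 0.22). Adipocyte markers had 3 of 15 called higher, all of which were Cidea, Cidec and Fabp4, and 2 lower, Adrb3 and Cyp2e1, with Adipoq and Lep at or near 0. The circadian clock (0 of 19 called), the nuclear lamina and its anchors (0 of 16), and iron and metal handling (2 of 24) were at or under the background by edgeR, with 4, 6 and 14 genes at an unadjusted p under 0.05. No share of all genes is given for the unadjusted p. DESeq2 with all 24 or with the 13 vehicle libraries called 0 genes in the first 2 of these lists. It called 6 and 7 genes of iron and metal handling, where it called 2152 and 2252 of all genes. In that list 6 of 24 genes had a log2 fold change above 0 (median -0.25). Its place at the background thus holds for the edgeR call only. Of 23 genes of MHC presentation, 4 were called lower and 0 higher, among them Nlrc5, which drives class I genes (-0.65 ± 0.12). Of 33 chemokines and receptors, 9 were called higher and 3 lower, with Ccl9 the strongest fall among those that met the rule (-1.16 ± 0.24).

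The libraries labelled rescue compare the same genotypes in other animals, with no library in common. There, 690 genes were called (2.88% of genes tested), with 3 controls only. Slopes on gene length were steeper in Lmna ADKO rescue library 7 (-0.331) and control rescue library 3 (-0.289) than in any vehicle library. Of the 2033 genes called with vehicle, 1915 (94.2%) had the same direction with the rescue, and 511 (25.1%) were also called. Cidec had a log2 fold change of 3.95 there (SE 0.76), Scd1 4.16 (SE 0.84), Slc10a2 3.65 (SE 0.46), and Cux2 -2.19 (SE 0.69), against 5.31, 3.00, 3.22 and -4.58 with vehicle. Of these genes, Cux2 was not called with the rescue (adjusted p = 0.0812 from edgeR), while Cidec, Scd1 and Slc10a2 were. The median of the female-biased list was -1.74 with the rescue, and that of the p53 targets was 0.34. Cdkn1a was at 1.27 (SE 0.56) and Eda2r at 0.50 (SE 0.34), and neither was called with the rescue. The interaction of genotype and treatment tests whether the 2 differences differ. By edgeR it reached an unadjusted p under 0.05 in 1165 of 23972 genes, where a share of about 0.05 would be expected with no interaction. It was called for 11 genes by DESeq2 and for 1 gene (0.00417% of genes tested) by edgeR. Rasd1, a small G protein that glucocorticoids induce, was that gene, with 1.48 with vehicle and -1.34 with the rescue (interaction -2.81, adjusted p = 0.00679 from edgeR), at 0.486 to 0.771 CPM in controls and 0.648 to 2.18 CPM in Lmna ADKO livers with vehicle. Without control library 1 of the rescue, the interaction was called for 0 genes by edgeR.

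**Figure D5:**
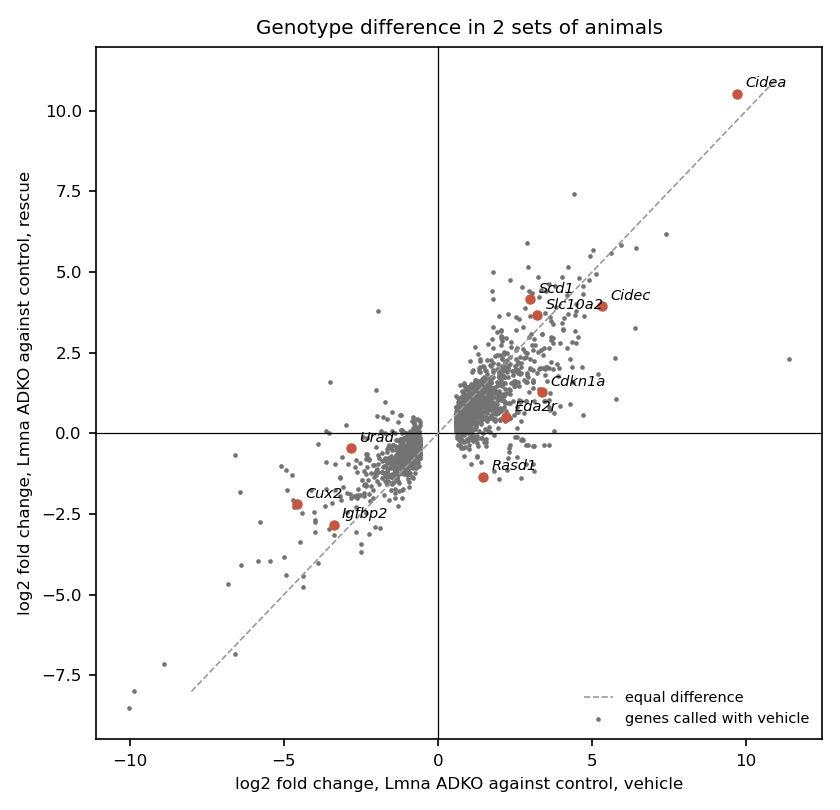
Log2 fold change of Lmna ADKO against control for the 2033 genes called with vehicle, with vehicle on the horizontal and with the rescue on the vertical axis; the dashed line marks equal differences. Of these genes, 1915 lie in the lower left or upper right quadrant, and Rasd1 lies in the lower right.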

How the data were processed

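RNA of liver was sequenced by the study from polyA-selected, strand-specific libraries. The authors deposited counts of reads per gene for 23972 genes, without normalization, after removing genes at 0 in every sample. The submitters' processing notes name cutadapt 4.8, FastQC 0.11.8, STAR 2.7.8a and RSEM 1.3.3 and the build GRCm38, and the methods give Ensembl 102 annotation and DESeq2 for the authors' own tests. Whether expected counts were rounded, how reads on several copies of a gene were split, and which strand setting was used is not given in the sources used here, so that close copies and antisense pairs are uncertain. The labels and the methods name different sequencing providers.

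Library sizes were scaled by TMM, and edgeR 4.0.16 (R 4.3.3, glmQLFit with robust fitting, then glmQLFTest) was run as 1 fit of the 4 groups over all 24 libraries, with no covariate. The call needed an adjusted p under 0.05 (Benjamini-Hochberg) and a fold change over 1.5. SE was taken as the size of the log2 fold change over the root of F, and a prior count of 2 entered log2 CPM. The script was tested on simulated data. The labels say only that libraries are separate, so p-values measure the spread between these samples. Of 36 pairs of libraries within vehicle groups, none agreed within sampling noise (chi-square per degree of freedom 16.8 to 112). Intervals and floors cover counting error only. The members, the 39 gene lists (1064 of 1068 entries matched) and the tests were chosen with earlier results of these data known. Named genes are the 15 largest rises, the 15 largest falls and the 10 largest differences in mean CPM, up to 5 genes per list, all called also with each vehicle library left out, averaging 0 or more in log2 CPM and without overlap of the groups, and anchor genes of each list. Genes named by a number or clone only were not named. Alternatives were DESeq2 1.42.0, the 13 vehicle libraries alone, DESeq2's size factors, filterByExpr, the adjusted p alone, the series of library numbers, the slope on gene length, and each library left out. Results for a few of the genes that this rule names are not reported here.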

Additional observations from a re-analysis of the deposited data

Results flagged for a closer look

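A gap between the highest or lowest library and the next one that passes Dixon's 95% limit was found in 29 of 382 groups of libraries checked (191 genes named in the text in each vehicle group). For genes picked without regard to their values, chance would give about 1 in 20. Many genes here were named for their values, Lcn2 and Orm2 after control library 1 had been seen. The 29 can therefore not be set against that rate. Of the 29, 5 were high values of control library 1 in acute phase genes and complement, with Saa1 at 1691 CPM (next control 142), Saa2 at 1638.0 CPM (next 76.8), Lcn2 at 441 CPM (next 67.9), Orm2 at 212 CPM (next 30.1) and C3 at 13869 CPM (next 9883).

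In Lmna ADKO livers, library 2 was low in Hamp (2.84 CPM, next 122) and high in Tfrc (56.3 CPM, next 26.8). Library 3 was low in Apoe (21558 CPM) and Keg1 (12.1 CPM). Library 4 was nearest to the controls in Anxa2 (53.8 CPM), F7 (65.1 CPM), Klb (32.1 CPM) and Slc22a26 (13.4 CPM), and low in Mlxipl (89.0 CPM). Library 5 was high in Fitm1 (51.8 CPM) and Me1 (375 CPM). Library 6 was low in Slc10a2 (14.96 CPM) and Avpr1a (1.92 CPM) and high in Mogat1 (31.9 CPM) and Cyp3a41a (4.14 CPM). Library 1 held the only Cyp3a16 reads of its group (0.139 CPM).

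Among vehicle controls, library 3 had the steepest slope on gene length. It was high in Foxa2 (57.2 CPM) and low in Inhbe (62.6 CPM) and Lrat (6.91 CPM). Library 4 was high in Osbpl3 (5.62 CPM) and held the only Cidea reads (0.138 CPM), library 2 was high in Adipoq (0.609 CPM), library 5 in Pgd (64.6 CPM) and library 6 in Insr (121 CPM).

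Rasd1 was the gene whose genotype difference changed between vehicle and rescue, by -2.81 on the log2 scale (adjusted p = 0.00679 from edgeR). It was higher in Lmna ADKO livers with vehicle (1.48) and lower with the rescue (-1.34), where there were 3 controls.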

How the results depend on the processing

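Against the 2033 genes called, 1227 higher and 806 lower, the adjusted p alone gave 3623, 2002 and 1621. Within the 3-digit libraries, with a single Lmna ADKO library, 124 were called, 104 higher and 20 lower, and within the 4-digit libraries, with a single control, 86 were called, 24 higher and 62 lower; the lone library was assumed to vary like the other groups. Of the 138 called genes named here, 111 did not pass within the 3-digit and 119 within the 4-digit libraries, with no change of direction. Leaving out 1 vehicle library gave 1723 to 2083 genes, 988 to 1260 higher and 713 to 823 lower. The number series as a covariate gave 1604 genes, and ended the call of 5 of the 138 called genes named here, Abhd5, Foxa2, Inhba, Mup20 and Rasd1. The other settings, which were DESeq2 with all 24 or only the 13 vehicle libraries, edgeR on these 13, DESeq2's size factors, edgeR's filterByExpr and the slope on length as a covariate, gave 1991 to 2363 genes and kept the calls of all 138. Some genes named as not called were called under them. With DESeq2 these were Fasn, Fgf21 and Trem2 on 24 libraries, and Fasn, Trem2, Epcam, Krt19, Hamp, Lcn2, Orm2 and Saa1 on 13. With edgeR they were Epcam and Krt19 on 13 libraries, Fasn and Fgf21 with filterByExpr, and Trem2 with the slope on length. Of the 39 list medians, 16 moved by more than the SD between replicates within the 3-digit and 14 within the 4-digit libraries, 4 with the number series, 4 with filterByExpr, 1 with the slope on length and 1 with DESeq2 on 13 libraries. The interaction was called for 11 genes by DESeq2 and for 0 to 5 with 1 library left out, with 4 without Lmna ADKO rescue library 3, 5 without rescue library 7, 5 without Lmna ADKO vehicle library 1, 2 without vehicle library 6, 2 without control library 1, 2 without control library 5, 0 without control rescue library 1 and 3 without control rescue library 3. Saa1 and Saa2 turned from lower to higher with DESeq2 on the 13 vehicle libraries, at 0.81 and 0.74, and were called higher there. The cause was not tested. No paired analysis was possible because the labels give the groups no shared replicate numbers. At this depth, genes at low CPM have wide errors, and a difference in them that was not called is not shown to be absent.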

Other observations

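Some single genes outside the gene lists were picked after their values had been seen, so that they say nothing of a pathway. Pgm3, in the hexosamine pathway, was at 7.49 to 16.7 CPM in controls (median 8.51) and 24.9 to 37.2 CPM in Lmna ADKO livers (median 29.3) (log2 fold change 1.57, SE 0.15, adjusted p = 5.6e-08 from edgeR). Uap1l1, related to the enzyme that makes UDP-N-acetylglucosamine, rose by 1.94 ± 0.30 on the log2 scale (SE after ±), Ugdh, which makes UDP-glucuronate, by 1.29 ± 0.15, and Gfpt1, the entry enzyme of the hexosamine pathway, by 0.76 ± 0.16. Related enzymes that were not called were Ugp2 (-0.035 ± 0.13), Galt (-0.36 ± 0.15) and Uap1 (0.25 ± 0.095).

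Further genes named after their values had been seen had the following values. Smpd3, a neutral sphingomyelinase, was at 0.609 to 2.54 CPM in controls (median 1.26) and 7.64 to 20.6 CPM in Lmna ADKO livers (median 15.2) (log2 fold change 3.36, SE 0.45, adjusted p = 2.78e-05), and Arsa, the lysosomal arylsulfatase A, was at 16.3 to 41.3 CPM in controls (median 18.9) and 88.7 to 119 CPM in Lmna ADKO livers (median 101) (log2 fold change 2.16, SE 0.18, adjusted p = 1.19e-08). Rarb, a retinoic acid receptor, rose by 1.55 ± 0.26, and Dhrs3, which reduces retinaldehyde, fell with a log2 fold change of -0.94 ± 0.18. Mtnr1a, a melatonin receptor, had a median of 0.499 CPM in controls and 3.38 CPM in Lmna ADKO livers (2.07 ± 0.39), and Avpr1a, a vasopressin receptor, had medians of 22.9 and 5.57 CPM (-1.99 ± 0.34). Rnase4, which shares its locus and first exons with Ang so that reads of both may be mixed, was at 1149.5 to 1957 CPM in controls (median 1355) and 336 to 816 CPM in Lmna ADKO livers (median 393) (log2 fold change -1.65, SE 0.24, adjusted p = 3.13e-05).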
